A study of Mus musculus with 6 samples.

Results

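Interferon-stimulated genes were described in 3T3-F442A cells, a mouse preadipocyte line, with and without SWELL1, together with the receptors and transcription factors that control them. The members are a list of 43 genes by symbol, made up of interferon receptor subunits, STAT and IRF factors, nucleic acid sensors and antiviral effectors. A gene was taken from the 31097 rows of the deposited table when the name field of a row, split at commas, held its symbol. By this rule 29 of the 43 genes had a row. The other 14 (Ddx58, Ifit2, Ifit3, Oas1a, Eif2ak2, Ifitm2, Ifitm3, Gbp2, Iigp1, Irgm1, Ifi27, Ifi35, Xaf1 and Lgals3bp) were not analysed here.

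The study measured RNA from these cells by sequencing. The SWELL1 KO group held 3 libraries of 3T3-F442A cells in which SWELL1, the volume-regulated anion channel subunit encoded by Lrrc8a, had been targeted with CRISPR/Cas9. The WT group held 3 libraries of the parental line. Both groups were cultured in RPMI with 10% FBS, and no label names an interferon, a virus or any other immune stimulus. The labels call the libraries of a group biological replicates without saying whether the KO libraries stem from 1 clone or from several, and the KO sample names alone carry the mark D3, which no label explains. A clone effect, a D3 effect and a genotype effect therefore cannot be told apart.

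Type I interferons bind a receptor made of IFNAR1 and IFNAR2. The kinases JAK1 and TYK2 then phosphorylate STAT factors, STAT2 among them, and STAT2 and IRF9 act within the complex ISGF3, which binds the interferon-stimulated response element (ISRE) in the promoters of its target genes. Many targets encode proteins that sense viral RNA, block viral entry, translation or budding, or damp the pathway itself. Fibroblasts and preadipocytes carry the receptor and express part of this programme at a low level without added interferon.

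The promoter windows of 6 members are shown because each belongs to a gene that passed the test in the comparison of KO with WT and holds the ISRE core GAAANNGAAA on either strand. Sequences are RefSeq windows on GRCm38.p6, each 300 bases long, from 250 bases before to 50 after the annotated start, written 5′ to 3′ on the strand of the gene, with the ISRE cores in capitals. Where a core lies on the opposite strand, the capitals show its reverse complement. The bases after the Stat2 start were found in no GENCODE transcript of the gene, and no such transcript began inside its window. The other 5 windows passed this check, which does not show that a transcript starts at the exact annotated base.
Isg15, chr4:156200769-156201068, minus strand: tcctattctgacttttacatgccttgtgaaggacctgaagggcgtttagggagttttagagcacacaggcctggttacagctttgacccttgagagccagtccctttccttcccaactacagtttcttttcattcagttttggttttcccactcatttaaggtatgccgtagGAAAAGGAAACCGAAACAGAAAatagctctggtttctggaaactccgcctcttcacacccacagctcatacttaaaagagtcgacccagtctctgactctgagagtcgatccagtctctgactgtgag
Ifit1, chr19:34640639-34640938, plus strand: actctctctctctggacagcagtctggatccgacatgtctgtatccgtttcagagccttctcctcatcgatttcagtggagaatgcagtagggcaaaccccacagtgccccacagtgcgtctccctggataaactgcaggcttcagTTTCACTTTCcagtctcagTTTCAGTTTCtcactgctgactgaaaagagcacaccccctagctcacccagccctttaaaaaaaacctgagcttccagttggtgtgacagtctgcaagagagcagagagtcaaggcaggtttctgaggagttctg
Gbp3, chr3:142559794-142560093, plus strand: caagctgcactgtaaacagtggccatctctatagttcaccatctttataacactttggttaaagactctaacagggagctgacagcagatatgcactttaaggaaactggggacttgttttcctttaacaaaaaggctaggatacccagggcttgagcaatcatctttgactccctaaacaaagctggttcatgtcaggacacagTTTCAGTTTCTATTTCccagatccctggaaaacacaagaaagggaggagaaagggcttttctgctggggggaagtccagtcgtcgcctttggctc
Bst2, chr8:71537423-71537722, minus strand: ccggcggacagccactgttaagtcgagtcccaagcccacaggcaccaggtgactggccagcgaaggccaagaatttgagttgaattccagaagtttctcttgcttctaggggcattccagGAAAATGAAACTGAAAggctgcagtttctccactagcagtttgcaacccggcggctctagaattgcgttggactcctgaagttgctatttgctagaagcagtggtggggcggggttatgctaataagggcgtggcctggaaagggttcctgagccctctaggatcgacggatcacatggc
Igtp, chr11:58199306-58199605, plus strand: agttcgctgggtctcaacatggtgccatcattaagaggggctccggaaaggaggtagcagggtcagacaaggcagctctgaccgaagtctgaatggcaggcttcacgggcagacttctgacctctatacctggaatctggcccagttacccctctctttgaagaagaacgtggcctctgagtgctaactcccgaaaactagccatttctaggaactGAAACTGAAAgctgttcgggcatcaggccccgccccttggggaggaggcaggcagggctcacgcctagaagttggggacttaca
Stat2, chr10:128270248-128270547, plus strand: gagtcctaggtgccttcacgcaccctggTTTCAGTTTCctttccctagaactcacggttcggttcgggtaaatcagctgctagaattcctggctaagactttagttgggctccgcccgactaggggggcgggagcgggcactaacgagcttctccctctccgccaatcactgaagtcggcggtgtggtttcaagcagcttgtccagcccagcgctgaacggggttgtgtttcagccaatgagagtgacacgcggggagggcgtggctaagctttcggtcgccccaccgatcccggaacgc

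The first 5 of these genes rose in KO cells and Stat2 fell. Isg15 held 3 overlapping cores between bases 78 and 57 before the start, Bst2 held 2 between 130 and 115, and Gbp3 held 2 between 45 and 30. In Ifit1 the 2 cores lay apart, at 104 to 95 and 85 to 76 bases before the start. Igtp and Stat2 held 1 core each, at 34 to 25 and at 222 to 213 bases before the start.

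Values are in FPKM, fragment counts scaled by transcript length and library size. No label names the unit of the table, and it was inferred from the use of Cufflinks and from the values. Depth was estimated from 1183 long genes, at a peak among low values, scaled by length, that was taken as 1 fragment. Near this peak lay 52 to 79 genes per library. The estimate was 18400000 to 26000000 fragments in KO libraries and 17200000 to 20900000 fragments in WT libraries. The row that holds Lrrc8a also holds Nup188 and Phyhd1, and stood at 28.8, 28.0 and 27.3 FPKM in KO libraries, against 32.5, 35.0 and 33.2 FPKM in WT libraries, so it is no check of the knockout on its own. The row of the numbered clone AC166252.2 took 16.7% to 23.71% of the FPKM sum in KO libraries and 0.0% to 2.1% in WT libraries. An exact 0 may be a failed estimate here. Among the 8117 rows with at least 5 FPKM somewhere, 259 held a 0 beside non-zero values within 1 group. Fibroblast and preadipocyte markers were abundant, with a summed level over 8 genes of 6160 to 6210 FPKM in KO libraries and 6740 to 7590 FPKM in WT libraries. The labels call the line adipocyte. Of the adipocyte markers, Fabp4 stood at 2.45, 3.48 and 4.37 FPKM in KO libraries and 188, 156 and 133 FPKM in WT libraries. Adipoq stood at 0.0443, 0 and 0 FPKM in KO libraries and 1.87, 1.55 and 1.26 FPKM in WT libraries, and Lep was listed at 0 in all 6.

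Most interferon-stimulated effectors were higher in KO cells, while the receptor subunits and Stat2 were lower. Of the 28 genes that passed the filter (an average FPKM of 0.5 or more across libraries), 19 were higher in KO cells, 3 were lower and 6 did not pass limma's test at an adjusted p of 0.05. Irf7 reached the filter through the KO group alone, so its direction was fixed by the filter, and without it 18 of 27 were higher and 3 lower. With Irf7, the share called higher was 67.9%, beside 28.5% of all 10515 tested rows, and the share called lower was 10.7%, beside 36.7%. Over both directions 65.2% of all tested rows were called, so a call in itself is common in this comparison. An increase of at least 2-fold on the log2(FPKM + 0.5) scale was called for 12 members (42.9%; 11 without Irf7), beside 7.52% of all tested rows. All KO libraries lay above all WT libraries for 20 of the 28 members (71.4%), beside 31.5% of all tested rows. Irf7, whose direction was fixed by the filter, is among these 20. The median log2 fold change, KO minus WT, was 0.63 over the 27 members with no library at 0, beside -0.07 over all tested rows.

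**Figure D1:**
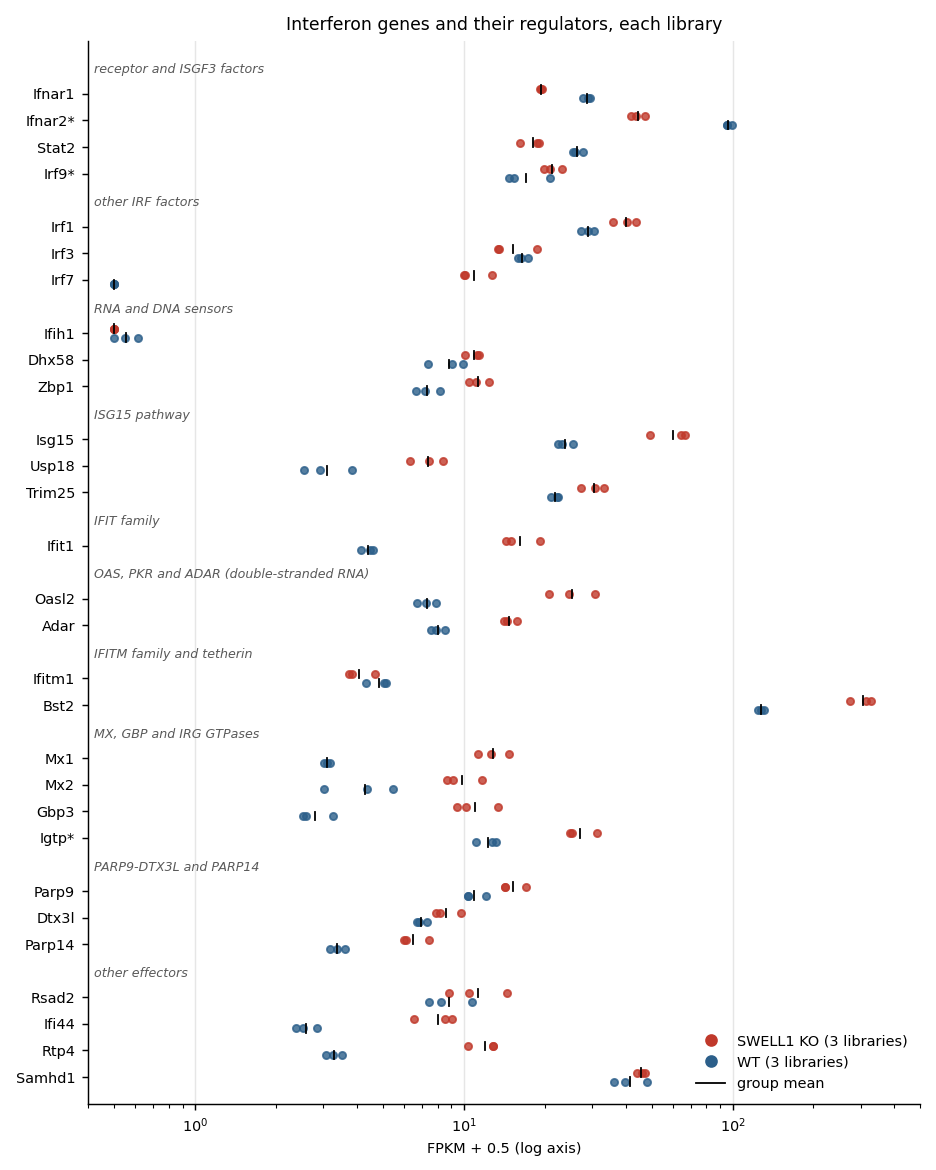
FPKM + 0.5 (log axis) of each of the 29 genes in the 3 SWELL1 KO libraries (red, upper points) and the 3 WT libraries (blue, lower points), with group means as black bars; an asterisk marks a row shared with another protein-coding gene. For most effectors the KO points lie to the right of the WT points, while for Ifnar1, Ifnar2 and Stat2 they lie to the left.

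Both receptor subunits fell. Ifnar1 (chromosome 16, 91485238 to 91507441, GRCm38) stood at 18.8, 18.9 and 19.1 FPKM in KO libraries, against 28.4, 29.0 and 27.4 FPKM in WT libraries (log2 fold change -0.57, SE 0.04, adjusted p = 6.46e-05). Ifnar2 (chromosome 16, 91372783 to 91405589) stood at 46.6, 41.6 and 43.4 FPKM in KO libraries, against 98.7, 94.5 and 94.9 FPKM in WT libraries (log2 fold change -1.12, SE 0.05, adjusted p = 1.65e-05). In neither gene did the groups overlap, and Ifnar2 changed 2.19-fold between the means. The Ifnar2 row also carries Il10rb, a receptor subunit for interleukin-10 and type III interferons, so the 2 genes cannot be told apart there.

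Of the ISGF3 factors on the list, Stat2 fell and Irf9 did not pass. Stat2, which carries the transactivation domain of ISGF3, stood at 18.3, 15.7 and 18.6 FPKM in KO libraries, against 25.4, 27.3 and 25.1 FPKM in WT libraries (log2 fold change -0.56, SE 0.08, adjusted p = 0.00129). Irf9, the DNA-binding subunit, stood at 20.5, 19.4 and 22.7 FPKM in KO libraries, against 20.5, 14.9 and 14.3 FPKM in WT libraries (log2 fold change 0.34, SE 0.15, adjusted p = 0.0871). The Irf9 groups overlapped through WT replicate 1 alone, without which the gene passed (log2 fold change 0.50, adjusted p = 0.00499). Its row is shared with Rnf31, which encodes a subunit of the linear ubiquitin ligase.

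Of the other IRF factors Irf1 rose, and Irf7 was above 0 in KO libraries alone. Irf7, an interferon-induced factor that drives further interferon gene transcription (chromosome 7, 141262706 to 141266481), stood at 9.59, 12.2 and 9.50 FPKM in KO libraries and was listed at 0 in all 3 WT libraries, so no fold change is given. It reached the filter through the KO group alone, its WT values may be failed estimates, and its test is not used as support. It was 1 of 30 rows reaching 5 FPKM that were listed at 0 in every WT library and in no KO library. The gene overlaps Phrf1 on the opposite strand, and the Phrf1 row stood at 11.4, 9.57 and 11.6 FPKM in KO libraries, against 15.4, 15.2 and 15.3 FPKM in WT libraries (log2 fold change -0.49, SE 0.08, adjusted p = 0.00229). The sources used here do not say if the libraries were stranded, so reads from the overlap cannot be assigned, and its part in the Irf7 values was not tested.

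Irf1, a factor known for its strong induction by interferon gamma, stood at 43.3, 40.0 and 35.4 FPKM in KO libraries, against 30, 28.6 and 26.8 FPKM in WT libraries (log2 fold change 0.46, SE 0.09, adjusted p = 0.00403). Irf3, the latent factor that sensors activate to start interferon beta transcription, stood at 12.9, 18.3 and 13.0 FPKM in KO libraries, against 15.4, 16.9 and 15.8 FPKM in WT libraries (log2 fold change -0.14, SE 0.14, adjusted p = 0.427). The Irf1 groups did not overlap. For Irf3, KO replicate 2 lay above all WT libraries and the other two KO libraries below them, and without KO replicate 2 the gene was called lower (log2 fold change -0.30, adjusted p = 0.0107).

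Of the nucleic acid sensors only Zbp1 passed among the 2 tested. Zbp1, a sensor of left-handed double-stranded nucleic acid that can trigger necroptosis, stood at 11.9, 9.94 and 10.6 FPKM in KO libraries, against 6.71, 7.65 and 6.12 FPKM in WT libraries (log2 fold change 0.63, SE 0.10, adjusted p = 0.00244). Dhx58, which encodes LGP2, a regulator of the RIG-I-like receptors, stood at 10.9, 9.62 and 10.7 FPKM in KO libraries, against 6.89, 9.44 and 8.53 FPKM in WT libraries (log2 fold change 0.32, SE 0.12, adjusted p = 0.0579). The Dhx58 groups did not overlap, by a narrow margin between KO replicate 2 and WT replicate 2, and the gene passed without WT replicate 2 (adjusted p = 0.0272). Ifih1, which encodes the long double-stranded RNA sensor MDA5, was the only member below the filter: all 3 KO libraries listed it at 0, while WT libraries had 0, 0.0493 and 0.112 FPKM.

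The ISG15 genes rose, all 3 of them. Isg15, a ubiquitin-like modifier (chromosome 4, 156199424 to 156200818), stood at 66.2, 48.9 and 63.8 FPKM in KO libraries, against 21.9, 25.0 and 22.8 FPKM in WT libraries (log2 fold change 1.33, SE 0.13, adjusted p = 0.000242). Usp18, the protease that removes ISG15 and also holds back signalling at IFNAR2, stood at 7.91, 5.83 and 6.94 FPKM in KO libraries, against 2.04, 3.35 and 2.42 FPKM in WT libraries (log2 fold change 1.27, SE 0.18, adjusted p = 0.00148). Trim25, a ubiquitin ligase that acts on RIG-I, averaged 29.9 ± 2.97 FPKM in KO and 21.4 ± 0.74 FPKM in WT libraries (SD, n = 3 each; log2 fold change 0.47, adjusted p = 0.00279 from limma). Isg15 and Usp18 changed by close ratios, 2.57-fold and 2.65-fold between the means, although Isg15 stood far above Usp18 on the FPKM scale.

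Effectors that act on viral RNA rose as well. Ifit1, which binds RNA with an incomplete cap (chromosome 19, 34640871 to 34650009), stood at 18.8, 13.9 and 14.5 FPKM in KO libraries, against 3.99, 4.08 and 3.65 FPKM in WT libraries (log2 fold change 1.87, SE 0.12, adjusted p = 5.76e-05). Oasl2, of the oligoadenylate synthetase family, stood at 30.2, 20.3 and 24.1 FPKM in KO libraries, against 6.75, 7.40 and 6.19 FPKM in WT libraries (log2 fold change 1.79, SE 0.15, adjusted p = 0.000157). Adar, the editor of adenosine to inosine in double-stranded RNA, averaged 14.3 ± 0.88 FPKM in KO and 7.50 ± 0.48 FPKM in WT libraries (SD, n = 3 each; log2 fold change 0.89, adjusted p = 0.000111 from limma). In each of these 3 genes the lowest KO library was above the highest WT library.

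Bst2 was the most abundant of the 29 genes in both groups. This gene encodes tetherin, which holds budding virus particles at the cell surface (chromosome 8, 71534255 to 71537456), and it stood at 314, 273 and 328 FPKM in KO libraries, against 124, 131 and 127 FPKM in WT libraries (log2 fold change 1.25, SE 0.07, adjusted p = 3.96e-05). Ifitm1, a membrane protein that hinders viral entry, did not pass, at 3.23, 4.16 and 3.34 FPKM in KO libraries and 4.66, 3.84 and 4.56 FPKM in WT libraries (log2 fold change -0.25, SE 0.12, adjusted p = 0.106). The Ifitm1 groups overlapped, and without KO replicate 2 the gene was called lower (log2 fold change -0.35, adjusted p = 0.0351).

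The MX, guanylate-binding and immunity-related GTPase genes rose in all 4 measured cases. Mx1, a dynamin-like GTPase that blocks influenza virus in the mouse nucleus, changed 4.77-fold between the means, at 14.2, 10.8 and 12.1 FPKM in KO libraries and 2.68, 2.60 and 2.52 FPKM in WT libraries (log2 fold change 2.05, SE 0.10, adjusted p = 2.31e-05). Its neighbour Mx2 stood at 11.2, 8.18 and 8.60 FPKM in KO libraries, against 3.88, 4.96 and 2.53 FPKM in WT libraries (log2 fold change 1.22, SE 0.24, adjusted p = 0.0051). Both are on chromosome 16, Mx1 at 97447035 to 97462907 and Mx2 at 97535308 to 97560900, and the WT libraries were tighter for Mx1 (SD 0.08 FPKM) than for Mx2 (SD 1.22 FPKM). Gbp3, a guanylate-binding protein of the same antimicrobial class, stood at 12.9, 8.93 and 9.72 FPKM in KO libraries, against 2.03, 2.77 and 2.08 FPKM in WT libraries (log2 fold change 1.97, SE 0.17, adjusted p = 0.000157). Igtp, an immunity-related GTPase, stood at 30.8, 24.8 and 24.3 FPKM in KO libraries, against 12.7, 12.2 and 10.6 FPKM in WT libraries (log2 fold change 1.13, SE 0.11, adjusted p = 0.000321). The Igtp row also holds Irgm2, a gene of the same family, and reads of such related copies may have been split between rows.

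The ADP-ribosylation genes rose by smaller amounts. Parp14, a mono-ADP-ribosyltransferase, averaged 6.0 ± 0.80 FPKM in KO and 2.89 ± 0.23 FPKM in WT libraries (SD, n = 3 each; log2 fold change 0.93, adjusted p = 0.000539 from limma). Parp9 averaged 14.7 ± 1.65 FPKM in KO and 10.5 ± 0.96 FPKM in WT libraries (log2 fold change 0.47, adjusted p = 0.00768 from limma; SD, n = 3 each). Dtx3l, the ubiquitin ligase partner of PARP9, averaged 8.12 ± 1.05 FPKM in KO and 6.45 ± 0.30 FPKM in WT libraries (log2 fold change 0.30, adjusted p = 0.0337 from limma; SD, n = 3 each). The Dtx3l call was lost without KO replicate 3 or without WT replicate 1, 2 or 3 (adjusted p from 0.0509 to 0.0937) and with no filter on low values (adjusted p = 0.0535). Parp9 and Dtx3l overlap head to head on opposite strands of chromosome 16, so reads from the overlap cannot be assigned where strand was not kept.

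Among the remaining effectors Rtp4 and Ifi44 rose, and Rsad2 and Samhd1 did not pass. Rtp4, an interferon-induced receptor transporter protein, stood at 12.4, 12.4 and 9.84 FPKM in KO libraries, against 3.03, 2.77 and 2.57 FPKM in WT libraries (log2 fold change 1.86, SE 0.11, adjusted p = 3.9e-05). The annotated Rtp4 gene overlaps Masp1 on the opposite strand, and the Masp1 row moved the same way, at 10.6, 10.3 and 10.1 FPKM in KO libraries, against 1.94, 1.89 and 1.43 FPKM in WT libraries (log2 fold change 2.27, SE 0.10, adjusted p = 1.64e-05). The part of Masp1 reads in the Rtp4 values was not tested. Ifi44, a cytoplasmic interferon-induced protein, stood at 8.03, 6.01 and 8.57 FPKM in KO libraries, against 2.03, 2.35 and 1.88 FPKM in WT libraries (log2 fold change 1.63, SE 0.15, adjusted p = 0.000199).

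Rsad2, which encodes the antiviral enzyme viperin, stood at 10.0, 14.0 and 8.34 FPKM in KO libraries, against 10.2, 6.95 and 7.71 FPKM in WT libraries (log2 fold change 0.35, SE 0.22, adjusted p = 0.207). Samhd1, which breaks down deoxynucleotides, stood at 45.4, 43.8 and 46.8 FPKM in KO libraries, against 35.8, 47.6 and 39.4 FPKM in WT libraries (log2 fold change 0.16, SE 0.11, adjusted p = 0.242). Both genes had overlapping groups, Rsad2 through WT replicate 1 and Samhd1 through WT replicate 2. Samhd1 passed without WT replicate 2 (log2 fold change 0.27, adjusted p = 0.016).

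**Figure D2:**
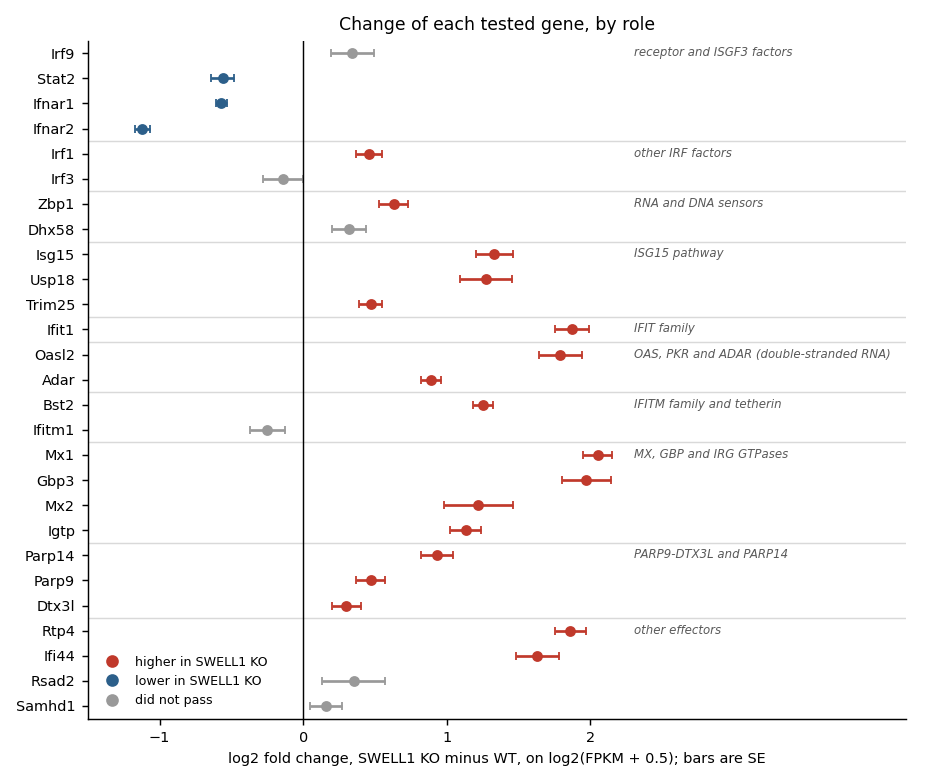
Log2 fold change, SWELL1 KO minus WT, on log2(FPKM + 0.5), with SE bars, for the 27 tested genes with no library at 0, grouped by role; red genes were called higher, blue genes lower and grey genes did not pass. The 3 blue genes (Ifnar1, Ifnar2 and Stat2) all lie among the receptor and ISGF3 genes, and Mx1 has the highest value at 2.05.

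The 2 kinds of member differed in their counts. Of 19 tested effectors 16 were called higher and 0 lower, with a median log2 fold change of 1.22. Ifitm1, Rsad2 and Samhd1 were the 3 that did not pass. Of 9 tested receptors, factors and sensors 3 were called higher and 3 lower, with a median of 0.09 over the 8 that had no library at 0; counts this small lie near the 28.5% called higher and 36.7% called lower over all tested rows, and Irf7 is 1 of the 3 called higher. No effector was called lower under any alternative except Ifitm1 without KO replicate 2. The difference between the 2 kinds was not tested.

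The 3 KO libraries were not at the same level within the genes that rose. KO replicate 1 was the highest KO library for 15 of the 19 genes called higher and the lowest for 0 of them. KO replicate 2 was the lowest for 13 of them. Among all rows called higher, KO replicate 1 was the highest in 41.3% and KO replicate 2 the lowest in 28.4%. The median level over the 19 genes was 113% of the KO mean in KO replicate 1, 89.4% in replicate 2 and 94.5% in replicate 3, beside 101.1%, 99.9% and 98.6% over all rows called higher. By the depth estimate KO replicate 2 was also the deepest library, and the part of depth in this pattern was not tested. Without KO replicate 1 the count called higher was again 19.

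**Figure D3:**
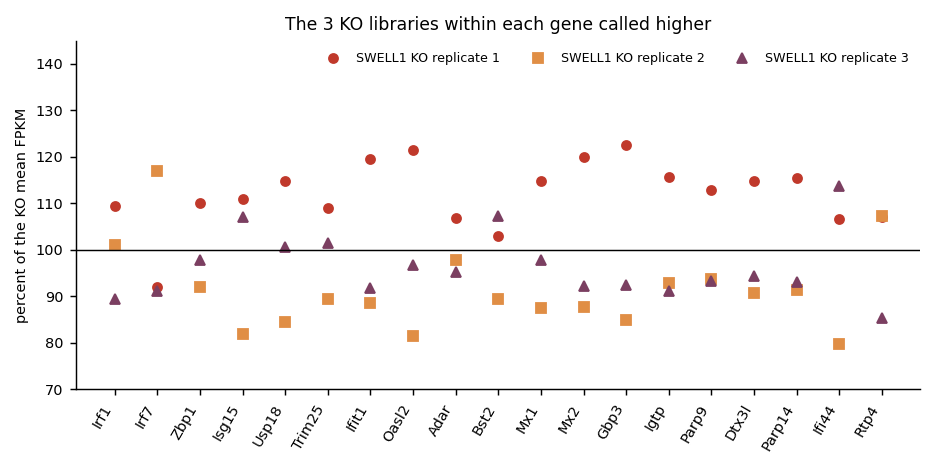
Level of each SWELL1 KO library as a percent of the mean FPKM of the 3 KO libraries, for the 19 genes called higher. Circles (replicate 1) lie above the line at 100 for every gene but Irf7, while squares (replicate 2) lie below it for all but Irf1, Irf7 and Rtp4.

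Interferon genes themselves were near or at 0. Of 19 interferon ligand genes 17 had a row, none of which reached the filter, and 14 were listed at 0 in all 6 libraries, Ifnb1 among them. The highest value was 0.248 FPKM, for Ifng in KO replicate 2, and Ifng stood at 0.144, 0.248 and 0.1 FPKM in KO libraries, against 0.0533, 0.0961 and 0 FPKM in WT libraries. Ifnz was above 0 in all 6 libraries, at 0.0248 to 0.103 FPKM. At the estimated depth a transcript of 1 kb at 1 FPKM was covered by about 17.2 to 26.0 fragments. These values therefore rest on a few fragments, and a 0 may hide a low level of these short transcripts.

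The JAK-STAT genes outside the list were called in both directions, in shares near those of all tested rows (28.5% higher and 36.7% lower). Of 12 tested rows 4 were called higher and 5 lower, with a median log2 fold change of -0.10. Without Ptpn6, which reached the filter through the KO group alone and so had its direction fixed by it, 3 of 11 were higher and 5 lower. The median still includes Ptpn6. The values named by rule among those called higher were Ptpn6, a phosphatase of cytokine signalling (2.09, 2.26 and 1.75 FPKM in KO libraries, 0.792, 0.251 and 0.290 FPKM in WT libraries), and Ifngr1, a subunit of the interferon gamma receptor (35.6, 32.9 and 31.5 FPKM in KO libraries, 13.0, 12.6 and 12.9 FPKM in WT libraries). The log2 fold change of Ifngr1 was 1.34 (SE 0.05, adjusted p = 1.15e-05), while Ifngr2, the other subunit, stood at 21.5, 20.5 and 13.9 FPKM in KO libraries and 15.0, 14.6 and 15.8 FPKM in WT libraries and did not pass (log2 fold change 0.27, SE 0.17, adjusted p = 0.211). The largest decreases were in Socs3, a feedback inhibitor of cytokine receptors, and in the kinase gene Jak2. Socs3 stood at 28.0, 25.6 and 25.9 FPKM in KO libraries, against 154, 148 and 143 FPKM in WT libraries (log2 fold change -2.46, SE 0.05, adjusted p = 1.86e-06). Jak2 stood at 9.12, 11.3 and 9.88 FPKM in KO libraries, against 30.1, 31.6 and 26.2 FPKM in WT libraries (log2 fold change -1.49, SE 0.10, adjusted p = 7.12e-05).

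In the arm that leads to interferon induction 7 of 16 tested rows were lower and 1 was higher (median log2 fold change -0.26 over the 15 rows with no library at 0), beside 36.7% lower and 28.5% higher over all tested rows. The share lower, 43.8%, was near that of all rows. Ikbke, a kinase that activates IRF3 and IRF7, was the 1 that rose, at 6.80, 6.44 and 5.61 FPKM in KO libraries, against 2.51, 2.56 and 2.40 FPKM in WT libraries (log2 fold change 1.18, SE 0.08, adjusted p = 7.56e-05). Myd88, the adaptor of most Toll-like receptors, stood at 11.9, 12.2 and 12.1 FPKM in KO libraries, against 28.1, 26.0 and 27.3 FPKM in WT libraries (log2 fold change -1.14, SE 0.04, adjusted p = 9.43e-06). Tmem173, which encodes the DNA-sensing adaptor STING, stood at 32.6, 31.7 and 30.7 FPKM in KO libraries, against 66.7, 66.7 and 56.6 FPKM in WT libraries (log2 fold change -0.99, SE 0.07, adjusted p = 0.000102). The groups did not overlap in any of these 3 genes.

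Of the IRF genes outside the list and their binding partners, 2 of 5 tested rows were higher and 2 lower, too few to set against the 28.5% and 36.7% of all tested rows. Irf2bp2 and Irf2bp1, which encode corepressors that bind IRF2, changed by 0.87 (SE 0.06, adjusted p = 8.9e-05) and 0.36 (SE 0.08, adjusted p = 0.0103) in log2 fold change. Irf2bpl and Irf2, a factor that can oppose IRF1 at its targets, changed by -1.04 (SE 0.05, adjusted p = 1.76e-05) and -0.51 (SE 0.05, adjusted p = 0.00039). Irf5 was listed at 10.3, 0 and 0 FPKM in KO libraries and at 0 in all WT libraries.

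A further 61 interferon-stimulated genes gave 35 tested rows that hold no member, of which 16 were higher and 4 lower in KO cells (median log2 fold change 0.34 over the 34 rows with no library at 0), beside 28.5% higher and 36.7% lower over all tested rows. Without 3 rows that reached the filter through the KO group alone (Trim34a, Gbp5 and Slfn5), 14 of 32 (43.8%) were higher and 4 (12.5%) lower. The median still includes Gbp5 and Slfn5. Some counted rows also hold another protein-coding gene, and their calls cannot be assigned to the interferon-stimulated gene. Among these were Parp10 with Plec and Ifi47 with Olfr56, called higher, and Ifitm10 with Ctsd, called lower. Cmpk2, a mitochondrial nucleotide kinase gene, stood at 5.77, 3.80 and 3.51 FPKM in KO libraries, against 0.729, 0.609 and 0.572 FPKM in WT libraries (log2 fold change 2.07, SE 0.19, adjusted p = 0.000202). Slfn5, of the schlafen family, stood at 0.972, 1.65 and 1.41 FPKM in KO libraries, against 0.0740, 0.120 and 0.0233 FPKM in WT libraries, and is given as values only. Other family members differed in direction. Slfn8 and Slfn9 were called higher (log2 fold change 1.40, SE 0.13, and 1.62, SE 0.08). Slfn2 was lower (log2 fold change -0.93, SE 0.11, adjusted p = 0.000575 from limma). Its values were 12.0, 9.44 and 12.4 FPKM in KO libraries, against 22.0, 22.6 and 20.7 FPKM in WT libraries. Parp11, an ADP-ribosyltransferase gene, was lower too, with 2.22, 2.57 and 2.29 FPKM in KO libraries, against 5.66, 4.23 and 4.97 FPKM in WT libraries (log2 fold change -0.92, SE 0.11, adjusted p = 0.000767).

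**Figure D4:**
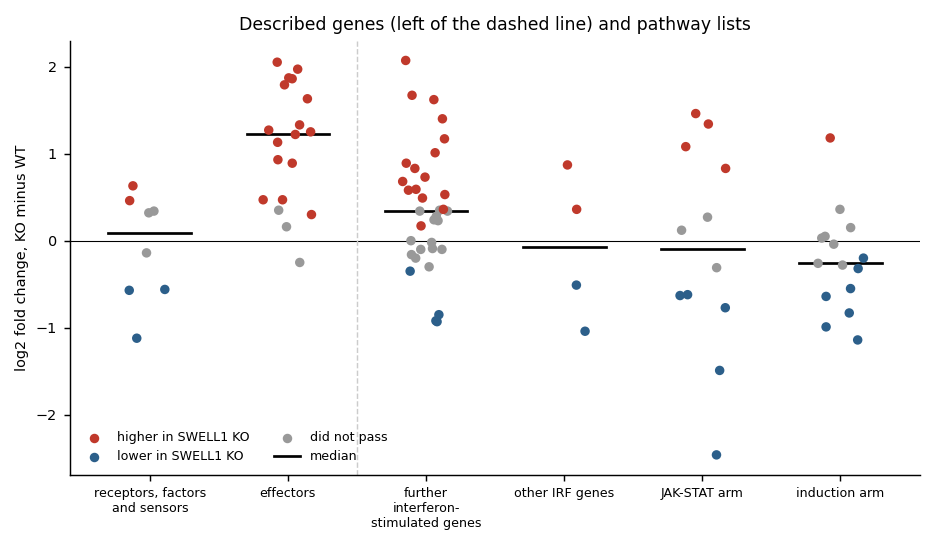
Log2 fold change, SWELL1 KO minus WT, of each tested row with no library at 0, for the described genes (left of the dashed line) and the 4 pathway lists with tested rows (right of it); black bars are medians and colours give the limma call. The effectors have a median of 1.22 and no blue point, while each other group holds both red and blue points. Red points outnumber blue among the further interferon-stimulated genes, and blue outnumber red in the induction arm. The red points include Ptpn6, Gbp5 and Slfn5, which reached the filter through the KO group alone.

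Markers of other cell types were read beside the interferon-stimulated genes. Of 11 leukocyte markers with a row, 4 were at 0 in all libraries, with Csf1r, Siglech and Cd3e among them, and 9 stayed under 0.5 FPKM in every library. Their summed level was 20.2 to 30.7 FPKM in KO libraries and 20 to 23.5 FPKM in WT libraries, nearly all of it from Cd14, which did not pass (log2 fold change 0.27, SE 0.17, adjusted p = 0.197), and Ptprc was at or under 0.0204 FPKM in every library. Lyz2 stood at 0.317, 0.101 and 0.0948 FPKM in KO libraries and 1.29, 1.64 and 1.61 FPKM in WT libraries. Adipocyte markers moved with the groups in the other direction, with a summed level of 2.71 to 4.62 FPKM in KO libraries and 137 to 195 FPKM in WT libraries over 7 genes, nearly all of it Fabp4, which was lower in KO cells (log2 fold change -5.36, SE 0.21, adjusted p = 1.09e-05). Adipoq, Pparg and Plin1 reached the filter through the WT group alone, so their direction was fixed by it and no test is given. The part of this difference in the interferon gene values was not tested. Endothelial markers (4 genes) stayed under 0.5 FPKM in every library, and of 4 epithelial markers 1, Krt8, passed the filter, at 1.49, 1.17 and 1.30 FPKM in KO libraries and 0 in all WT libraries. Bulk libraries do not tell fewer expressing cells from less RNA per cell.

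ISRE cores were then counted over all promoter windows, as a description with no test. Of the 29 genes 21 matched a RefSeq window by symbol, and 8 of these 21 held GAAANNGAAA on either strand, beside 3.99% of all 27025 genes with a window. The 8 were the 6 printed above, Rsad2 and Ifih1. By call, 5 of 12 genes called higher, 1 of 3 called lower, 1 of 5 that did not pass and the 1 untested gene held a core. The gamma-activated core TTCNNNGAA, which reads the same on both strands, was in 7 of the 21, beside 9.55% of all genes with a window, and in Bst2 it overlapped an ISRE core. Of the 12 called higher, Irf7, Oasl2, Ifi44, Trim25 and Dtx3l had neither core in their windows, and a site outside the 300 bases would not be seen.

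**Figure D5:**
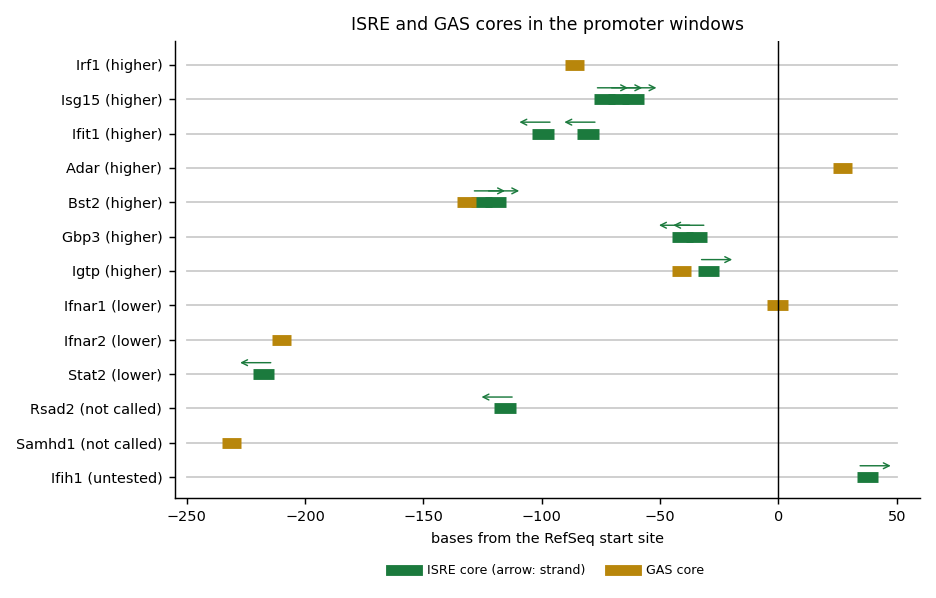
Position of ISRE cores (green, with an arrow for the strand) and GAS cores (gold) in bases from the RefSeq start site, in the promoter window of each gene that held at least 1, with its call in brackets. The ISRE cores of the 5 genes called higher lie between 130 and 25 bases before the start, and that of Stat2 lies at 222 to 213 bases before it.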

How the data were processed

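RNA from 3 SWELL1 KO and 3 WT samples was sequenced by the study. The authors deposited 1 table of 31097 rows, whose values were taken to be FPKM; per the submitters' processing notes TopHat 8.7 and Cufflinks 2.02 were used with GRCm38. Some rows (659) carry more than 1 gene name. Its values are not counts. Library depth was inferred from single-transcript genes of at least 2500 bases, at a peak among low values that was taken as 1 fragment.

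Rows averaging 0.5 FPKM or more were tested as log2(FPKM + 0.5) with limma 3.58.1 (R 4.3.3, trended variance), two-sided, KO minus WT, with Benjamini-Hochberg adjustment over all 10515 rows tested and a threshold of 0.05. The pseudocount understates fold changes of low genes. The fit was checked on simulated data in which few rows were changed and noise was independent. That check does not cover a comparison in which 65.2% of tested rows were called. Nothing says that replicates came from separate cultures beyond the word biological in the labels, so p-values measure the spread between these samples.

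The gene list and the pathway and marker lists were chosen with earlier results of these data known. Named by rule were all regulators, every member with a 0, effectors called at 2-fold or more, and in each pathway list the 2 largest called changes per direction in unshared rows with no 0. Other members are given as values or means. Promoter windows are from RefSeq (GRCm38.p6), gene positions from GENCODE M21 (GRCm38). Alternatives were pseudocounts of 0.1 and 1, no filter or a filter at 2 FPKM, quantile normalization, median-ratio scaling, a robust fit, a replicate block, leaving out each library, and leaving out shared rows; leaving out members with a library at 0 was added after seeing the data. A planned comparison of IFITM proteins was not made.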

Additional observations from a re-analysis of the deposited data

How the results depend on the processing

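Across the settings listed with the methods, 18 to 22 members were called higher and 2 to 5 lower. The count called lower was 3 to 5 with 1 library left out, reaching 5 without KO replicate 2, when Irf3 and Ifitm1 passed, and 2 with shared rows left out. When each member was refitted under each setting, 378 results kept the direction and the side of the threshold, 5 (all Dtx3l) lost the call, 9 gained one and 0 reversed. Irf9 and Samhd1 passed under quantile normalization (adjusted p = 0.0387 and 0.0274), and Dhx58 under quantile normalization and median-ratio scaling (adjusted p = 0.0311 and 0.0271); the cause was not tested. The same call in every alternative was held by 22 of 28 members. Of all calls 43.7% were higher, against 50.4% with quantile normalization and 48.8% with median-ratio scaling. Same-numbered KO and WT libraries did not deviate together (r = 0.003, 0.012 and -0.093). These values showed no pairing by number, but they cannot say how the samples were handled. With the replicate block 6534 rows in all and 22 members were called (19 higher, 3 lower). Depth limits what can be said of genes under 0.5 FPKM, such as Ifih1 and the interferons.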
